A study of Rattus norvegicus with 4 samples.

Results

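Enteroendocrine cells are the hormone-producing cells scattered through the gut epithelium, and 10 genes that mark them were followed in rat colon after mesenchymal stem cell transplantation (MSCT). The genes were chosen by symbol for their known role, with earlier results of these data known. A gene counted as measured if a row of the deposited table carried its RefSeq accession and a value on all 4 arrays. By this rule 8 of the 10 genes were measured, out of 26420 rows in the table, of which 18350 held a value on all 4 arrays. Pcsk1, the convertase that cuts prohormones, had a row that was blank on all 4 arrays, and Tph1, the enzyme that starts serotonin synthesis, had no row by name. Neither has a measured level here. Each measured gene had a single row.

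The arrays were one-color NimbleGen arrays, hybridized with Cy3-labeled cDNA from colon tissue of male Sprague Dawley rats, with 1 array per rat. The MSCT group (2 arrays, named case in the labels) came from rats with inflammatory bowel disease (IBD) induced by TNBS, a hapten given in ethanol into the colon, which then received GFP-labeled MSCs through the tail vein. The control group (2 arrays) received no MSCs, and the sources differ on whether these rats had IBD: the paper compares MSCT with IBD controls, the sample descriptions call the controls normal rats, and the series text uses both names. The difference between the groups may therefore hold the TNBS injury as well as the transplantation, and these cannot be told apart. The day of sampling is given differently in the paper's Methods and Results and is not in the labels, and the rats' age is not given. The median intensity of the arrays lay between 847.6 and 892.7.

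Each type of enteroendocrine cell stores a set of peptide hormones or serotonin in dense-core granules and releases it from its base when nutrients or microbial products reach the lumen. In the colon, L cells that make the products of proglucagon and peptide YY and enterochromaffin cells that make serotonin are the main types, and D cells make somatostatin. Hormones are cut from larger precursors inside the granules, which the chromogranins help to form. The cells arise from crypt progenitors through a series of transcription factors of the bHLH and homeodomain classes. Many of these genes are also active in enteric neurons, and in pieces of whole colon a change in the number of cells of a type and a change in RNA per cell cannot be told apart.

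Of the 8 measured genes, 7 were higher in the MSCT group on both arrays than on either control array: Gcg, Isl1, Chgb, Chga, Pyy, Sst and Cck. Gcg stood far above the others, at 5.33-fold. Neurod1 was the exception. Groups that did not overlap, with MSCT higher, were thus found in 7 of the 8 genes and in 21.3% of all rows, and with MSCT lower in 0 of the 8 genes and in 24.5% of all rows. The median log2 difference of the 8 genes was 0.64, beside -0.02 over all measured rows. These comparisons describe genes chosen with earlier results of these data known. In limma, which fits each row by a linear model and moderates its variance towards that of the other rows, 4 of the 8 genes had an unadjusted p under 0.05 with MSCT higher (4.80% of all rows) and 0 with MSCT lower (7.17% of all rows). The screen used here asked for both an unadjusted limma p under 0.05 and more than a 2-fold difference. It was passed by 2 of the 8 genes with MSCT higher, Gcg and Isl1 (2.12% of all rows), and by 0 with MSCT lower (2.51% of all rows). Both cut-offs are those of the study, but the paper does not name the test behind its p for the arrays. The rows that passed here are therefore not the study's own list. No gene passed an adjusted p of 0.05 over all rows, and no row of the table did (0% of all rows). With 2 arrays per group, the smallest two-sided p of an exact permutation test is 0.333, and smaller p-values come from limma's moderated variance.

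**Figure D1:**
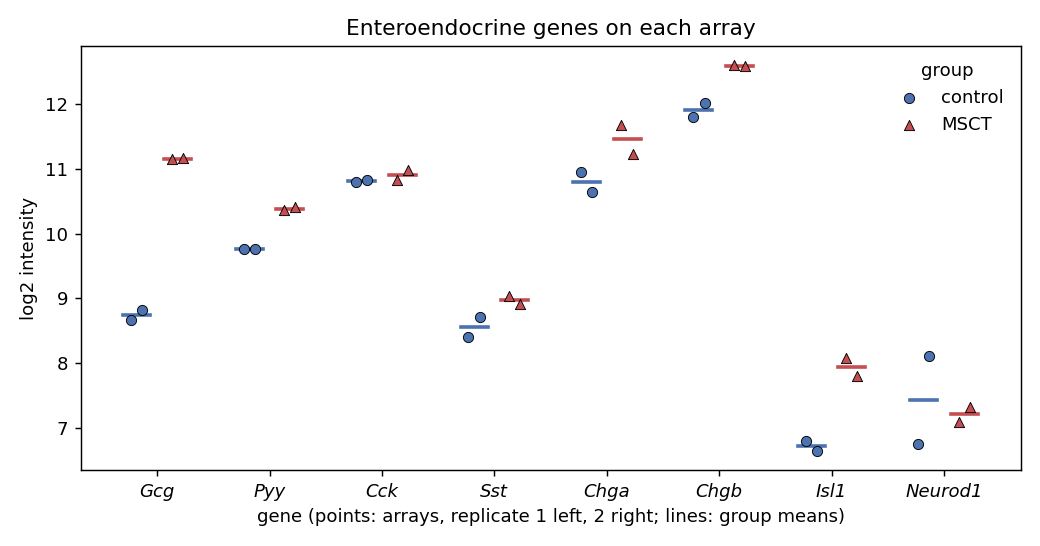
The log2 intensity of 8 enteroendocrine genes (y axis) is plotted for each of the 2 control arrays (circles) and 2 MSCT arrays (triangles), with a line at each group mean; intensities of different genes come from different probes and are not comparable. The MSCT points lie above the control points in every gene but Neurod1, whose control arrays (6.75 and 8.11) enclose the MSCT arrays.

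The promoters of the 3 hormone and granin genes with a limma p under 0.05 are shown because the bHLH factors of endocrine cells, Neurod1 among them, bind the E-box CANNTG. Each line holds the 150 bases before the annotated start in RefSeq (GRCr8), 5′ to 3′ in the direction of the gene, with E-boxes in capitals. Gcg lies at chr3:67531534-67531683 (minus strand), Pyy at chr10:87562471-87562620 (minus strand) and Chgb at chr3:140496562-140496711 (plus strand).
Gcg: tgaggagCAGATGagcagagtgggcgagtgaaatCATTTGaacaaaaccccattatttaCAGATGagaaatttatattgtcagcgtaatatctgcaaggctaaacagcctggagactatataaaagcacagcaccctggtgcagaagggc
Pyy: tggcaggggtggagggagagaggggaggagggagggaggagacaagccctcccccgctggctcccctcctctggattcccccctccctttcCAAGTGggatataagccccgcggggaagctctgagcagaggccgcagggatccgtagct
Chgb: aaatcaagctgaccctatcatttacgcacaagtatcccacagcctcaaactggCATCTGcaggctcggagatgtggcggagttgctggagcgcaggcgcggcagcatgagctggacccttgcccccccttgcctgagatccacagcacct

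The Gcg promoter held 3 E-boxes, starting at -143, -116 and -91 from the annotated start, and those of Pyy and Chgb held 1 each, at -59 and -97. The letters TAAT, the core bound by homeodomain factors such as Isl1, were searched on both strands and matched the Gcg window at -99 and -65 and neither of the other windows. TATAAA, also searched on both strands, matched only the Gcg window among these, at -80 on the opposite strand and at -32 in the direction of the gene. Of the 10 genes, 7 had a promoter in the table (Gcg, Pyy, Chgb, Sst, Tph1, Isl1 and Neurod1). Of these, 5 held an E-box and 4 held TAAT, where 46.6% and 40.05% of all 33469 promoter windows of this length did, and TATAAA was in 8.0% of them. The motifs do not overlap each other in the Gcg window. A match is a description of these letters and does not show that a factor was bound.

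Among the hormone genes, the largest difference was that of Gcg (NM_012707), which encodes proglucagon, the precursor of glucagon and of the glucagon-like peptides that L cells release. Its linear intensity in replicates 1 and 2 was 407 and 454 in the control group, against 2281 and 2299 in the MSCT group. Both MSCT arrays lay far above both control arrays, and the distance between the nearest arrays of the groups was 2.33 on the log2 scale. The mean was 8.75 ± 0.11 (SD, n = 2) in the control group and 11.16 ± 0.01 (SD, n = 2) in the MSCT group, a log2 difference of 2.41 (standard error 0.19, 95% confidence interval 1.91 to 2.91; limma unadjusted p = 1.09e-04, adjusted p = 0.257). Gcg held place 29 of 18350 rows ordered by their difference, from the highest down. The adjusted p was 0.00129 when the variance was allowed to depend on intensity, a setting in which 387 rows (2.11%) passed, and 0.00400 without the dimmest 50% of rows, where 247 of 9175 rows (2.69%) passed. It was 0.0680 without the dimmest 25% of rows and between 0.297 and 0.633 with an array left out.

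Pyy (NM_001034080) encodes peptide YY, which L cells make together with proglucagon and which slows gut transit. Both control rats had an intensity of 869, and the MSCT rats had 1325 and 1358. The replicates were close together and the groups separate, but the difference was much smaller than that of Gcg: 0.63 on the log2 scale, 1.54-fold (standard error 0.18, 95% interval 0.14 to 1.11; limma adjusted p = 0.341).

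Sst (NM_012659) encodes somatostatin, the D-cell peptide that restrains the release of other hormones. Control rats had intensities of 338 and 420 and MSCT rats of 523 and 482, a log2 difference of 0.41 whose 95% interval, -0.15 to 0.98, included 0 (limma adjusted p = 0.515). Cck (NM_012829) encodes cholecystokinin, a hormone mainly of the upper small intestine and also a neuropeptide. Control rats had 1776 and 1813, and MSCT rats 1827 and 2039. The groups were separated by only 0.01 on the log2 scale, and the difference was 0.10 (95% interval -0.40 to 0.61; limma adjusted p = 0.846).

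The same values can be written as log2 ratios within each array, which restate the differences above and add no further evidence. The log2 ratio of Gcg to Pyy was -1.09 and -0.94 in control rats, against 0.78 and 0.76 in MSCT rats, so it differed by 1.79 between the groups. The ratio of Gcg to Cck differed by 2.31 and that of Gcg to Sst by 2.00. In each of the 3 pairs the groups did not overlap. This alone sets the exact permutation test (two-sided) to the smallest p that the design allows (p = 0.333, and 0.333 adjusted over the 3 pairs). These pairs were chosen after the values were seen.

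The granins are acidic proteins of the dense-core granule and are general markers of endocrine cells and neurons. Chgb (NM_012526), which encodes chromogranin B, had intensities of 3572 and 4151 in control rats, against 6233 and 6181 in MSCT rats. The groups were separate, and the log2 difference was 0.69, 1.61-fold (standard error 0.19, 95% interval 0.17 to 1.21; limma adjusted p = 0.338). Chga (NM_021655), which encodes chromogranin A, had intensities of 1993 and 1603 in control rats, against 3301 and 2409 in MSCT rats. Its difference was of like size, 0.66, but the replicates lay further apart and the 95% interval reached from -0.03 to 1.35 (limma adjusted p = 0.432). With MSCT replicate 1 left out, the difference of Chga was 0.43.

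The transcription factors came from dim rows, where the replicates vary most: the median pooled SD between replicates was 0.47 over the dimmest 25% of rows, where both genes lay, beside 0.14 over the brightest 25%. Isl1 (NM_017339), a LIM homeodomain factor of endocrine cells and neurons, had intensities of 111 and 99.9 in control rats, against 271 and 223 in MSCT rats. Both MSCT arrays lay above both control arrays, with a pooled SD of 0.16, and the log2 difference was 1.23, 2.34-fold (standard error 0.21, 95% interval 0.67 to 1.78; limma unadjusted p = 0.00301, adjusted p = 0.260). With 64 added to each intensity, which damps dim rows, the difference was 0.87 and Isl1 no longer passed the screen. Neurod1 (NM_019218), a bHLH factor that acts in the last steps of endocrine differentiation, had intensities of 107 and 276 in control rats, against 137 and 160 in MSCT rats. The control arrays enclosed the MSCT arrays, and the log2 difference was -0.22 with a 95% interval from -1.55 to 1.10 (limma adjusted p = 0.881). The sign of the difference turned when control replicate 2 was left out (0.46), and without control replicate 1 it was -0.90.

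**Figure D2:**
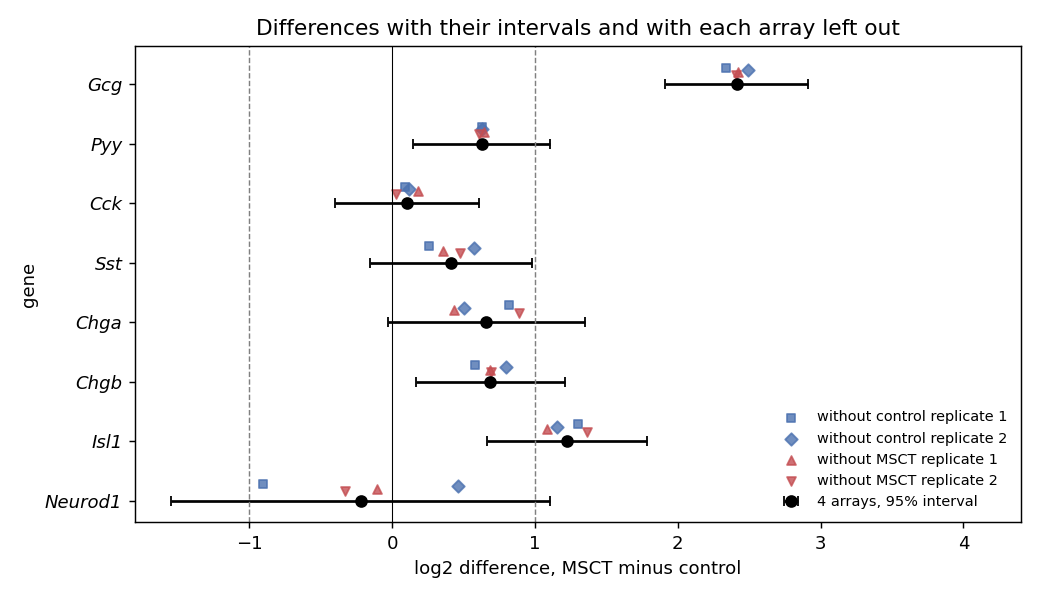
The log2 difference between MSCT and control (x axis) is shown for 8 genes as a black point with its 95% confidence interval, with colored points for the fit without each array and dashed lines at a 2-fold change. Gcg stayed between 2.34 and 2.49 and Isl1 between 1.09 and 1.37, whereas Neurod1 lay between -0.90 and 0.46.

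**Figure D3:**
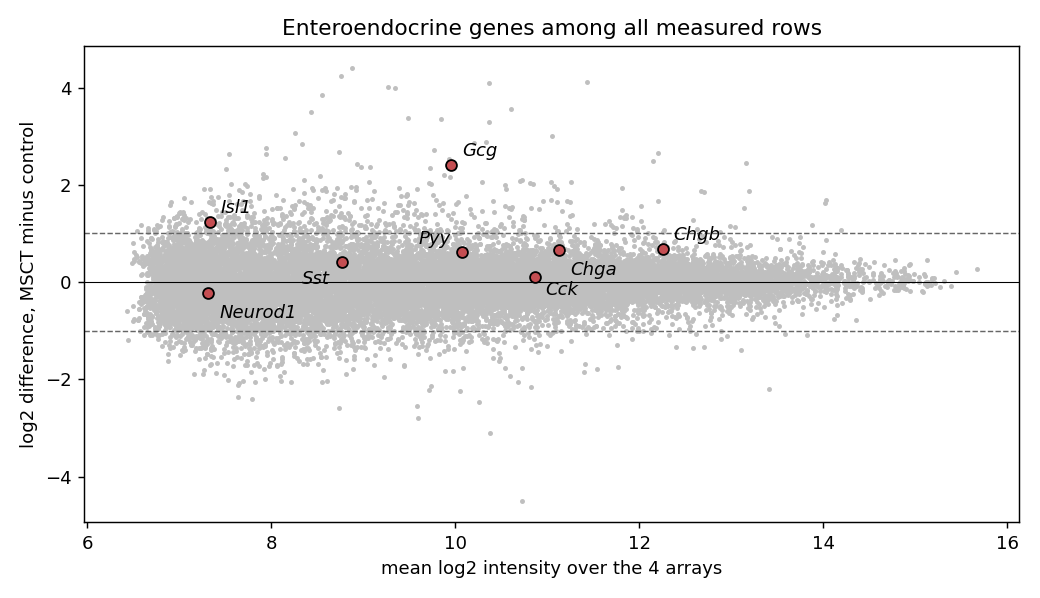
The log2 difference between MSCT and control (y axis) is plotted against the mean log2 intensity over the 4 arrays (x axis) for all 18350 measured rows (grey) and the 8 enteroendocrine genes (red), with dashed lines at a 2-fold change. Gcg (2.41) stands at the edge of the cloud at a middle intensity, Isl1 (1.23) and Neurod1 (-0.22) lie among the dim rows where the cloud is wide, and Chgb (0.69) lies among bright rows where it is narrow.

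Beyond these genes, 6 lists of genes of the same cells held 115 genes, of which 64 were measured, with a median log2 difference of 0.16. Of the 64, 2 passed the screen with MSCT higher, where 2.12% of all rows did, and 1 with MSCT lower, where 2.51% of all rows did, so these shares were near those of all rows. The first 2 were Slc18a1, the vesicular monoamine transporter that loads serotonin into the granules of enterochromaffin cells, and Rab27a, a small GTPase that brings granules to the plasma membrane. The count with MSCT higher was 12 of 64 without control replicate 2, against 2 to 3 without each of the other arrays.

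In the list of serotonin handling, 12 of 19 genes were measured, with a median of -0.15. Past the screen were 1 gene with MSCT higher (2.12% of all rows) and 1 with MSCT lower (2.51% of all rows). An unadjusted limma p under 0.05 was found in 2 of the 12 with MSCT higher (4.80% of all rows). With MSCT lower it was found in 3 (7.17% of all rows). Slc18a1 had log2 intensities of 8.08 and 7.27 in control rats, against 9.50 and 8.88 in MSCT rats. The groups were separate by 0.80, and the difference was 1.52, 2.86-fold (standard error 0.39; limma adjusted p = 0.324). It no longer passed the screen without control replicate 2 (1.11) or MSCT replicate 1 (1.20). The gene lower in the MSCT group was Htr1b, a serotonin receptor, from 8.28 and 8.56 to 6.71 and 7.78 on the log2 scale, a difference of -1.18 (limma adjusted p = 0.398). Of the fits without an array, it passed the screen only in that without MSCT replicate 2 (-1.71), and was -0.64 without MSCT replicate 1, -1.32 without control replicate 1 and -1.04 without control replicate 2. Of genes chosen after their values were seen, Slc6a4, the transporter that takes serotonin back up, differed by -0.67, Htr3b by -0.92 and Gch1, which makes the cofactor of Tph1, by 0.55, each with an unadjusted limma p under 0.05. Ddc, the enzyme after Tph1 in serotonin synthesis, differed by -0.10 (95% interval -0.59 to 0.39).

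In the list of granules and prohormone processing, 15 of 16 genes were measured, with a median of 0.16, 10 higher and 5 lower. Rab27a had log2 intensities of 10.43 and 10.74 in control rats, against 11.47 and 11.79 in MSCT rats, a difference of 1.04 (standard error 0.23; limma adjusted p = 0.304). It fell short of the screen without control replicate 1 (0.89) or MSCT replicate 2 (0.88). No other gene of the list had an unadjusted p under 0.05. The convertase Pcsk2 differed by 0.27, the carboxypeptidase Cpe by 0.24 and the granins Scg2 and Scg3 by -0.40 and -0.46.

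Of the other gut hormones, 5 of 12 were measured (Sct, Ppy, Tac1, Guca2a and Guca2b), their groups overlapped in every case and none passed the screen. The smallest p belonged to Ppy, which encodes pancreatic polypeptide and differed by 0.76 (limma adjusted p = 0.559). This value depended on the control arrays, at 0.18 without control replicate 1 and 1.33 without control replicate 2, where Ppy passed the screen. Of the transcription factors, 10 of 24 were measured, with a median of 0.12 and none past the screen. Neurog3, the bHLH factor that commits progenitors to the endocrine fate, had log2 intensities of 6.78 and 7.61 in control rats, against 7.69 and 8.25 in MSCT rats, a difference of 0.77 (95% interval -0.23 to 1.78; limma adjusted p = 0.501). It was 0.36 without control replicate 1, 0.50 without MSCT replicate 2 and 1.19, past the screen, without control replicate 2.

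Of the genes by which these cells sense nutrients, 9 of 21 were measured, with a median of 0.24 and a range from -0.55 to 1.33, and none passed the screen. Ffar4, a receptor for long-chain fatty acids, had the smallest p, with a difference of 0.78 (95% interval -0.12 to 1.68; limma adjusted p = 0.466). It was 0.46 without MSCT replicate 1, 0.49 without control replicate 2 and 1.09, past the screen, without MSCT replicate 2. Of hormone receptors and degrading enzymes, 13 of 23 were measured, with a median of 0.30 and a range from -1.23 to 1.16, none passed the screen and 2 had an unadjusted limma p under 0.05, both with MSCT lower, where 7.17% of all rows did. Dpp4, the peptidase that inactivates glucagon-like peptides and trims peptide YY, had log2 intensities of 12.25 and 12.66 in control rats, against 11.52 and 11.50 in MSCT rats. The groups were separate by 0.72, and the difference was -0.94, 1.92-fold (standard error 0.23; limma adjusted p = 0.319). Without control replicate 1 it was -1.15 and passed the screen. Sstr1, a somatostatin receptor chosen after its values were seen, differed by -0.92 (limma adjusted p = 0.327). The receptor genes Glp1r and Glp2r were blank on all 4 arrays.

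**Figure D4:**
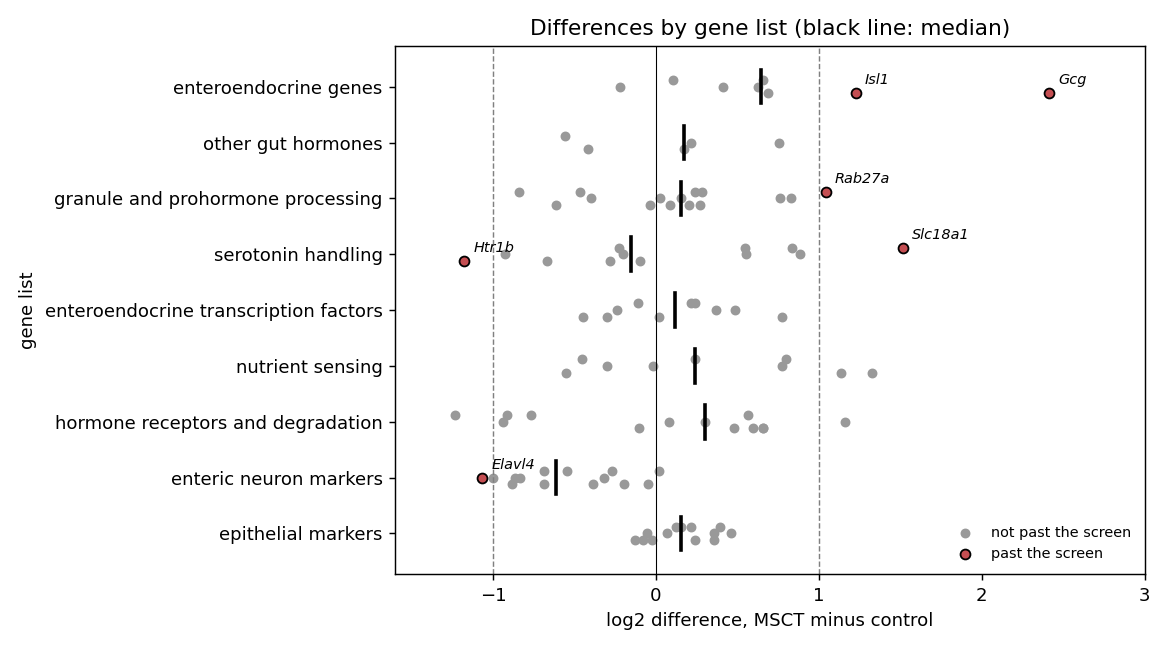
Each point is the log2 difference between MSCT and control (x axis) of a measured gene, by gene list (y axis), with a black line at the list's median and dashed lines at a 2-fold change; red points passed the screen. The 8 enteroendocrine genes have a median of 0.64, the medians of the 6 wider lists lie between -0.15 and 0.30, and the enteric neuron markers have a median of -0.61.

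Because neurons share several of these genes, markers of the other cells of the colon wall were read on the same arrays. Of 18 enteric neuron markers, 14 were measured, and 13 of these were lower in the MSCT group, with a median log2 difference of -0.61, where 9541 of all 18350 rows were lower. Their summed intensity was 17827 and 16239 in control rats, against 11026 and 11935 in MSCT rats. Of the 14, 6 had an unadjusted limma p under 0.05 with MSCT lower (7.17% of all rows), and 1, Elavl4, which encodes a neuronal RNA-binding protein, passed the screen with MSCT lower (2.51% of all rows). Its difference was -1.06 (limma adjusted p = 0.354). It did not pass without control replicate 1 (-0.67), MSCT replicate 1 (-1.17) or MSCT replicate 2 (-0.96). On the same arrays, Gcg, Chgb, Chga and Isl1 were higher and 13 of the 14 neuron markers lower. Which cells these differences came from was not tested. Of 15 epithelial markers, 13 were measured, with a median of 0.15 and a range from -0.13 to 0.46. The smallest p was that of the keratin gene Krt20, which differed by 0.39 (limma unadjusted p = 0.0891). The groups did not overlap in 8 of the 13 markers with MSCT higher (21.3% of all rows) and in 0 with MSCT lower (24.5% of all rows). Their summed intensity was 275920 and 271875 in control rats, against 309796 and 300092 in MSCT rats. Of 8 smooth muscle markers, 5 were measured, with differences from -0.04 to 0.08, the highest that of Cnn1. The 5 measured of 6 enteric glia markers ranged from -0.60 (Sox10) to 1.28, with a median of 0.01 and none past the screen. Every measured marker had a value on every array by the rule for being measured, which does not show that it was expressed. The part of these other cells in the differences was not tested.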

How the data were processed

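Colon RNA of 2 control and 2 MSCT rats was measured on one-color NimbleGen arrays, scanned on an Axon GenePix instrument and read with NimbleScan. The authors deposited linear intensity values, 1 per transcript and array. The submitters' processing notes name RMA without its settings, and why 8070 rows are blank on all arrays is not given in the sources used here. No value column was left without a sample (0).

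Rows were named by RefSeq accession through the gene table of GRCr8, used for names, neighbours and promoters (7068 of 18350 measured rows had a symbol). Intensities were taken to log2 with no pseudocount, scaling or filter. MSCT was compared with control over all 18350 rows by lmFit and eBayes of limma 3.58.1 (R 4.3.3) without covariates, with Benjamini-Hochberg adjustment over these rows, after the fit had been tested on simulated data. With 2 arrays per group, their number limits the precision. Python 3.11.15, pandas 2.3.3 and matplotlib 3.10.9 made the counts and figures.

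The genes and lists were chosen with earlier results of these data known. All 10 genes were named, and from each list the genes past the screen (at most 5 per direction) or, where none passed, the gene with the smallest p. Other genes named were chosen after their values were seen. Alternatives were a plain t-test with equal variances, quantile normalization, equal array medians, leaving out dim rows (25% or 50%) and an intensity-dependent variance. Further ones were an offset of 64, the replicate number as a block, each array left out and folds from linear means. The most different row of a gene and a fold limit of 1.5 were also tried.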

Additional observations from a re-analysis of the deposited data

How the results depend on the processing

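Gcg, Pyy, Chga, Chgb, Sst and Cck kept their direction in all settings in which they were tested (14, and 13 for Sst), and their side of the screen at the 2-fold limit. Without each array in turn, the difference of Gcg lay between 2.34 and 2.49, that of Isl1 between 1.09 and 1.37, that of Neurod1 between -0.90 and 0.46, reversed only without control replicate 2, and the median of the 8 genes between 0.54 and 0.65. Isl1 missed the screen with the offset of 64 (0.87). Of the 13 other genes named by the rule, only Cnn1 turned (from -0.10 to 0.26 over the arrays left out). Of the 8 genes, 2 passed the screen with MSCT higher, but 1 with the offset of 64 or without the dimmest 25% or 50% of rows, which leave out Isl1 and Neurod1, and 4 with a fold limit of 1.5, which Pyy and Chgb also passed. In the wider lists, 2 genes passed with MSCT higher, but 1 by the plain test or without the dimmest 50% of rows, and 2 to 12 with an array left out (12 without control replicate 2). With MSCT lower 1 passed, but 0 with the offset of 64, by the plain test or without the dimmest 25% or 50% of rows, 5 with a fold limit of 1.5, and 1 to 5 with an array left out (5 without MSCT replicate 2, 3 without either control replicate). Over all rows, 850 passed, but 388 by the plain test, 251 without the dimmest 50% of rows, 1565 without control replicate 2 and 1503 without MSCT replicate 2, and 4 rows had an adjusted p under 0.05 without the dimmest 25%. Apart from the rows left out, the cause was not tested.

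The groups share replicate numbers, but nothing states that these pair the rats. Replicate differences correlated between the groups (Pearson's r = 0.234 across 18350 rows, which are not independent). With the replicate block, the median of the 8 genes was 0.64, 2 of them passed the screen with MSCT higher, and in the wider lists 3 genes passed with MSCT higher and 2 with MSCT lower.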

Other observations

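In the order of protein-coding genes in the RefSeq table, Gcg lies between Dpp4 and Fap, the genes of related peptidases. The neighbours were read after the values of Gcg were seen. Gcg differed by 2.41 on the log2 scale and Dpp4 by -0.94, and Fap was at 0.89 (standard error 0.34; limma adjusted p = 0.422). The direct neighbours of Gcg thus lay on opposite sides of 0.

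Of 11 mast cell markers, 6 were measured and 5 of these were higher in the MSCT group, where 8809 of all 18350 rows were higher. Of the 6, 2 had an unadjusted limma p under 0.05 with MSCT higher (4.80% of all rows). The summed intensity of the 6 was 1456 and 1230 in control rats, against 4634 and 3362 in MSCT rats. A single row, named Mcpt1 in the gene table, held most of this difference. Without it the sums were 1352 and 1130 in control rats, against 2105 and 1491 in MSCT rats. The fold of this row, 21.3, is to rounding the one that the paper lists for Mcpt2, and the paper's fold for Mcpt1 is smaller. Which of the 2 proteases the row measured is therefore not settled here. Mast cells of rodents also carry Tph1, which had no row by name here. The row NM_172044, a mast cell protease named Mcpt1 in the gene table, had the highest positive difference of all measured rows (4.41, standard error 0.23; limma adjusted p = 0.257), and Gata2, a transcription factor of mast cells, was at 1.24, passing the screen also without MSCT replicate 2 (1.70) but not without MSCT replicate 1 (0.79), control replicate 1 (1.02) or control replicate 2 (1.47). Nor did Gata2 pass by the plain t-test or with 64 added to each intensity. Kit and Tpsab1, also markers of mast cells, were at 0.18 and -0.09.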
